A study of Mus musculus with 22 samples.

Results

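The comparison described here follows control cardiac fibroblasts in culture from day 7 to day 10 after retroviral transduction with lacZ, a bacterial gene with no part in reprogramming. It covers 4 of the 22 arrays of the study, which were chosen by vector and day alone: 2 lacZ arrays of day 7 against 2 lacZ arrays of day 10, across all 18062 genes measured. The study used Agilent 1-colour 8x60K arrays of total RNA to follow mouse cardiac fibroblasts towards induced cardiomyocytes at days 0, 3, 5, 7, 10 and 14, for setting beside single-cell RNA sequencing of such cells. All cells came from CD1 mice carrying aMHC-GFP, a green fluorescent reporter named after the alpha myosin heavy chain gene of cardiomyocytes. The lacZ cultures served as controls for cultures given MGT, a polycistronic retrovirus of the cardiac transcription factors Mef2c, Gata4 and Tbx5. Each group has 2 arrays, and the labels do not say whether these came from separate cultures or animals, so the p-values measure the spread between arrays, which may be technical.

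Cardiac fibroblasts lay down and remodel the matrix of the heart, and in culture they acquire contractile genes of smooth muscle and become myofibroblasts. Primary preparations also carry over macrophages, endothelial cells and remnants of heart muscle cells. Retroviral particles and cell damage can switch on interferon and NF-kB target genes, whose products sense nucleic acids, block viral replication and recruit leukocytes.

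A level below is log2 of a probe's signal minus log2 of the 75th percentile of its array, so 0 is that percentile and 1 unit is a doubling. A gene was called when its difference had an adjusted p under 0.05 (limma over all 22 arrays, Benjamini-Hochberg over all genes). The 4 arrays had 75th percentiles of 1285 to 1732 intensity units, the lowest on day 10 array 1, and 50.1% to 64.3% of spots well above background, with both day 10 arrays under both day 7 arrays. The day 10 replicates lay further apart than the day 7 replicates, with a median absolute difference of 0.185 against 0.122 log2 units over genes. Both days were on 1 slide, but the day 7 arrays sat in row 1 and the day 10 arrays in row 2, so day and slide row cannot be told apart within the lacZ arrays. All 6 defining fibroblast markers (Pdgfra, Ddr2, Dcn, Col1a1, Thy1, Tcf21) were well above background on all 4 arrays, as were the 5 macrophage markers Csf1r, Cd68, Ptprc, Tyrobp and Adgre1, the endothelial genes Pecam1, Cdh5 and Kdr, and the cardiomyocyte genes Myh6, Tnnt2 and Actc1. Ryr2, the calcium release channel of heart muscle, was not well above background on any of the 4. In bulk RNA, fewer cells of a type and less RNA per cell cannot be told apart.

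From day 7 to day 10, 699 genes rose (3.87% of all tested) and 927 fell (5.13%), in total 1626 genes or 9.00%. The shares of 3.87% and 5.13% are the base for each list count of this step below. The median difference over all genes was -0.0034. Of the calls, 318 rises and 119 falls reached 1 log2 unit. Rises and falls differed in how well the day 10 arrays matched. Day 10 replicates lay more than 1 log2 unit apart for 168 of the 699 rises and for 2 of the 927 falls. In addition, 75 of the rises and none of the falls were genes not well above background on any of the 4 arrays, for which no size is given here. With all dim probes kept in, 1016 genes were higher and 811 lower, so that 55.6% of calls were rises against 43.0% in the comparison as given. The calls draw on the spread of all 11 groups: fitted on the 4 arrays alone, limma called 0 genes, with 2344 at an unadjusted p under 0.05 and a smallest adjusted p of 0.103, and fitted on the 8 arrays of the slide it called 130 rises and 240 falls. There were 1231 rises and 1171 falls without day 10 array 1, 691 and 609 without day 10 array 2, 302 and 562 without day 7 array 1, and 267 and 367 without day 7 array 2. Leaving out the lacZ arrays of day 14, whose replicates differ most, gave 1062 and 1504.

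**Figure D1:**
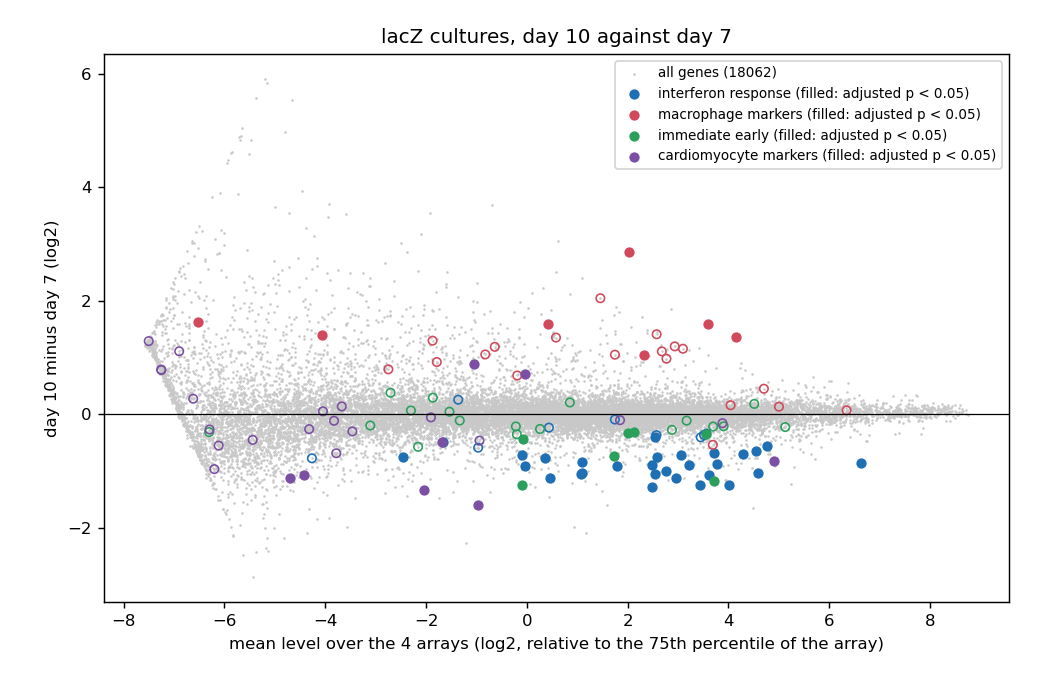
Difference between day 10 and day 7 of the lacZ cultures (log2) against the mean level over the 4 arrays (log2, relative to the 75th percentile of the array) for all 18062 genes, with members of 4 gene lists in colour and called members filled. Interferon response genes (blue) lie below 0 over a wide range of levels, and macrophage markers (red) lie above 0 for 25 of 26 members.

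The largest falls among genes above background on all 4 arrays were tight between replicates. H2-M2, a non-classical class I histocompatibility gene, measured -0.048 and -0.10 on the day 7 arrays and -2.34 and -2.37 on the day 10 arrays. It fell by 2.28 ± 0.19 log2 units (SE, adjusted p = 3.71e-05, limma), or 4.85-fold. Fgl2, which encodes a fibrinogen-like protein that can cleave prothrombin, measured 2.16 and 2.30 at day 7 and 0.063 and 0.18 at day 10, a fall of 2.11 ± 0.090 (adjusted p = 1.48e-07, limma), the smallest p of the comparison. Its probe lies at chr5:20883482-20883541 (mm9, the build of the array design). The neutrophil chemokine gene Cxcl5 measured 1.86 and 2.01 at day 7 against 0.083 and -0.20 at day 10, a 3.99-fold fall with an SE of 0.24 log2 units (adjusted p = 0.00039). In each of these genes the gap between the days was far larger than the differences between replicates. Both day 10 arrays lay below both day 7 arrays, which was a condition for the largest falls and adds no support. The same was so for 25.1% of all genes.

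Serpina3g, a serine protease inhibitor, fell from 5.18 and 5.45 to 3.74 and 3.57, a change of -1.66. Slpi, a secreted inhibitor of leukocyte proteases, fell from 0.025 and -0.11 to -1.40 and -1.44, a change of -1.38. Slc2a4, the insulin-regulated glucose transporter, fell by 1.48. Kit, the receptor of stem cell factor, fell by 1.40, the melanocyte antigen gene Mlana by 1.35 and the acute phase gene Itih4 by 1.29. The other 5 of the 14 were the muscle genes Actc1, Cox8b, Trim63 and Myh6 and the interferon target Ifi44, described with their groups. Over the 14 genes the day 10 replicates differed by 0.027 to 0.39 log2 units. All 14 kept their call when any 1 of the 4 arrays was left out and when the fit used the arrays of the slide alone.

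**Figure D2:**
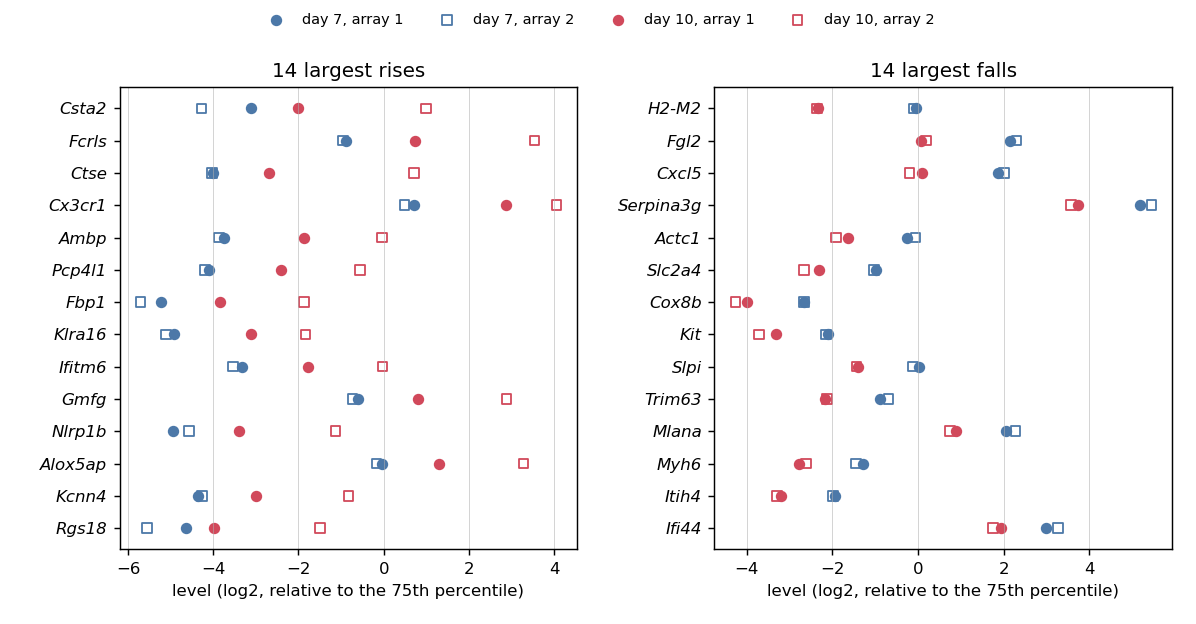
Levels (log2, relative to the 75th percentile of the array) of the 14 genes with the largest rises (left) and the 14 with the largest falls (right) among called genes well above background on all 4 arrays, 1 symbol per array. For the falls the 2 arrays of a day lie close together, and for the rises day 10 array 2 (open red squares) lies 1.19 to 3.41 log2 units above day 10 array 1 (filled red circles).

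Genes of the interferon response fell together. Of 38 measured members 29 fell and none rose, against 5.13% and 3.87% over all genes, and the median member difference was -0.78 against -0.0034 over all genes. Both day 10 arrays lay below both day 7 arrays for 34 of the 38, which was so for 25.1% of all genes. Ifit3, whose product binds other IFIT proteins that recognise viral RNA, measured 4.67 and 4.60 at day 7 and 3.57 and 3.19 at day 10. It fell by 1.25 ± 0.24 (adjusted p = 0.0062, limma), or 2.38-fold. Ifit1, which binds viral RNA caps, went from 4.05 and 4.09 to 2.98 and 2.66, a fall of 1.25 ± 0.19 (adjusted p = 0.0019). Ifi44 went from 2.98 and 3.27 to 1.94 and 1.75, a fall of 1.28 ± 0.16 (adjusted p = 0.00045). Day 10 array 2 was the lower of the pair for 31 of the 38 members. Most genes of any kind were also lower on that array, as only 36.9% of all genes were higher there.

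Signalling members were among the falls. Irf7, the transcription factor that amplifies interferon production, measured 1.04 and 1.03 at day 7 and 0.11 and -0.30 at day 10, a fall of 1.13 ± 0.17 (adjusted p = 0.0019). Usp18, a protease that removes ISG15 and restrains the receptor, fell by 1.12 ± 0.23 (adjusted p = 0.011). The calls also took in the transcription factor Stat2, the RNA sensors Ifih1, Ddx58, Dhx58 and Tlr3, the 2′-5′ oligoadenylate synthetase family (Oas1a, Oas2, Oasl1, Oasl2), the GTPases Igtp, Iigp1, Irgm1, Gbp3, Gbp5 and Mx2, and the ubiquitin-like modifier Isg15. The 9 members not called were Isg20, Oas3, Mx1, Irf1, Irf9, Rsad2, Cmpk2, Gbp2 and Eif2ak2, with differences from -0.78 (Oas3) to 0.25 (Mx1). The list had 15 falls without day 7 array 1, 16 without day 7 array 2, 19 without day 10 array 2 and 27 without day 10 array 1, with medians of -0.76 to -0.81 and no rise.

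Transcription factors activated by interferon bind a DNA element whose core is a pair of GAAA boxes. The letters GAAANNGAAA, on either strand, were searched for in RefSeq promoters (GRCm38.p6, 250 bases before to 50 after the start). They were present in 1131 of 32851 promoters (3.44%). Of the 38 members, 28 had a promoter entry, and 16 of these (57.1%) held the letters in any of their entries, 12 called lower and 4 not called. The 3.44% counts promoter entries and the 57.1% counts genes, so the shares are in unlike units. Windows of 60 bases around the match in 4 genes that fell are given to show the element beside the values, with the matching letters in capitals.
Ifit3, chr19:34583382-34583441, + strand: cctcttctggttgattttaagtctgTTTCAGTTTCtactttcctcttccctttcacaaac
Ifit1, chr19:34640779-34640838, + strand: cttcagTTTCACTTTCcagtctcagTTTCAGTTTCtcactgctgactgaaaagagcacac
Igtp, chr11:58199496-58199555, + strand: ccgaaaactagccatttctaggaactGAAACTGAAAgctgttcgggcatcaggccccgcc
Gbp5, chr3:142496744-142496803, + strand: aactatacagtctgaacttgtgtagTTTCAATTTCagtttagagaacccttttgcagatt
The match begins 122 bases before the annotated start in Ifit3, 34 in Igtp and 165 in Gbp5, and the second of the matches in Ifit1 begins 85 bases before it. In Ifit3, Ifit1 and Gbp5 the capitals read as TTTC boxes, the motif on the other strand. Igtp fell by 1.05 and Gbp5 by 0.92 log2 units, so the 4 genes shown fell by 0.92 to 1.25. A match is a description of these letters and no measure of binding.

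Of 20 measured antigen presentation genes 6 fell and 2 rose. The falls were genes of the class I pathway, which displays peptides from inside the cell: Tap1, the peptide transporter, went from -0.11 and -0.21 to -1.01 and -1.25 (-0.97 ± 0.17, adjusted p = 0.0047), Nlrc5, the activator of class I genes, fell by 0.96 and the class I heavy chain gene H2-D1 by 0.46. H2-T23, Tapbp and Psmb10 were also called lower. The rises were genes of the class II pathway of professional antigen-presenting cells. Cd74, the class II invariant chain, measured -4.86 and -4.51 at day 7 and -3.72 and -3.0 at day 10 (1.32 ± 0.26, adjusted p = 0.0075), and H2-Aa was called higher but was not well above background on any of the 4 arrays and turned to -0.19 with normexp background correction and to -0.65 in the deposited table. The list had 2 falls and 1 rise without day 7 array 2, 4 falls and no rise without day 7 array 1, 7 falls and 1 rise without day 10 array 2, and 2 falls and no rise with array weights or on the slide alone.

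**Figure D3:**
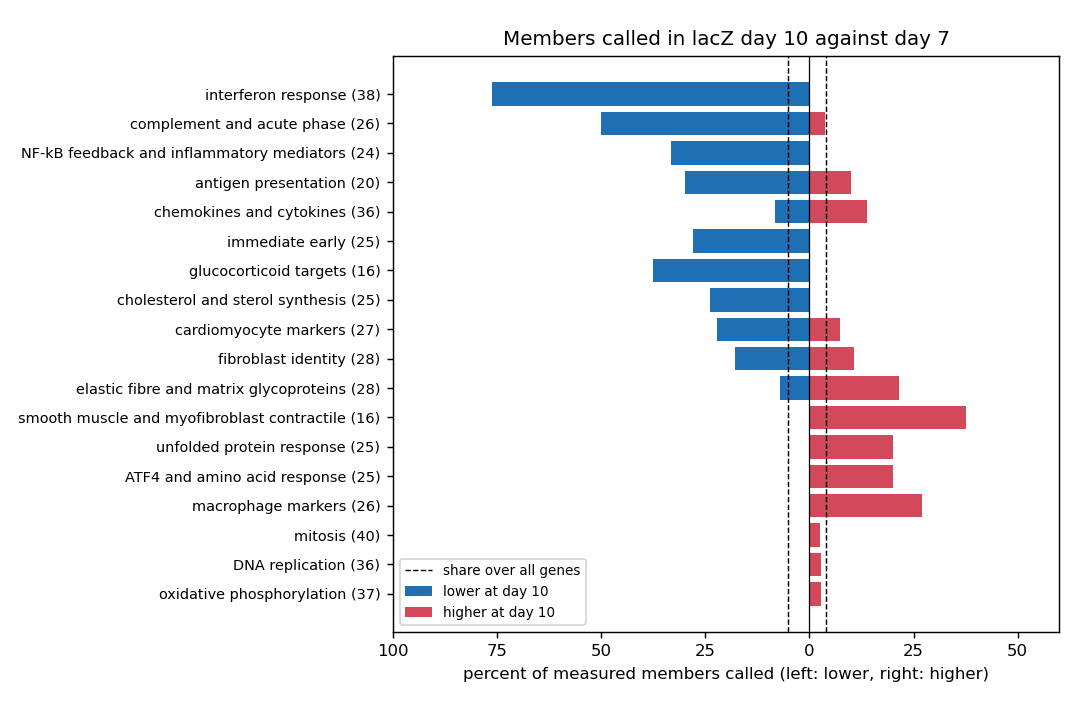
Percent of measured members of 18 gene lists called lower (blue, to the left) or higher (red, to the right) in lacZ day 10 against day 7, with the number of measured members in brackets and the shares over all genes as dashed lines (5.13% lower, 3.87% higher). The interferon list reaches 29 of 38 members lower, and the smooth muscle list 6 of 16 members higher.

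Some inflammatory genes outside the interferon list also fell. Of 24 NF-kB feedback genes and inflammatory mediators 8 fell and none rose, with a median of -0.29. The acute phase gene Saa3 measured 4.90 and 4.97 at day 7 and 3.83 and 4.16 at day 10 (-0.95 ± 0.20, adjusted p = 0.011). Steap4 fell by 0.93, the iron-siderophore carrier Lcn2 by 0.76 and the adhesion gene Icam1 by 0.55, and the NF-kB regulators Nfkbiz and Nfkbia were both among the calls. On the 8 arrays of the slide alone none of these 8 was called. Without day 7 array 2 the list had 2 falls, and without day 7 array 1 or day 10 array 2 it had 5.

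The complement and acute phase list held 13 falls and 1 rise among 26 measured members, with a median of -0.49. The classical pathway proteases C1ra and C1rb, and C1s1, fell with the convertase genes C2, C4b and Cfb and with the regulators Cfi, Cd55, Clu and Serping1. C1ra went from 4.52 and 4.84 to 3.71 and 3.71, a fall of 0.97 ± 0.10 (adjusted p = 0.00019). The copper carrier Cp fell by 1.02 ± 0.17 (adjusted p = 0.0029), to 2.05 and 2.23 at day 10. The rise was Cfp, properdin, a complement activator made by leukocytes, which measured 1.98 and 1.72 at day 7 and 2.72 and 3.89 at day 10. Without day 7 array 2 the list had 5 falls. It had 8 falls without day 10 array 2, and 12 falls and 6 rises without day 10 array 1. Saa3 is in both this list and the one before, and C1ra and C1rb are near-identical neighbours that a probe may not separate.

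Among 36 measured chemokine and cytokine genes 5 rose and 3 fell. Ccl17, which attracts T cells, measured -0.21 and -0.20 at day 7 and 2.09 and 1.72 at day 10, a rise of 2.11 ± 0.14 (adjusted p = 8.39e-06, limma), or 4.32-fold. Cx3cl1, the membrane-bound ligand of the receptor Cx3cr1, rose from 1.98 and 2.12 to 3.43 and 3.03 (1.17 ± 0.13, adjusted p = 0.00023). In both genes day 10 array 1 was the higher. Il1rn, the interleukin-1 receptor antagonist, rose by 1.75 with 1 day 7 array not well above background, and Cxcl14 and Il11 were the other rises. Cxcl1, like Cxcl5 a ligand of the neutrophil receptor, fell by 1.23 ± 0.23 to 1.04 and 0.49 (adjusted p = 0.0069), and Tslp fell too. Without day 10 array 2 or day 7 array 1 the list had 3 rises, and it had 1 fall without day 7 array 2.

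Immediate early genes, which respond to growth factors and stress within minutes, fell in 7 of 25 measured members and rose in none, with a median of -0.23. Fos, a subunit of the AP-1 transcription factor, measured 0.57 and 0.48 at day 7 and -0.82 and -0.63 at day 10, a fall of 1.25 ± 0.097 (adjusted p = 2.10e-05). Egr1, a zinc-finger factor, went from 4.34 and 4.26 to 3.14 and 3.09, a fall of 1.18 ± 0.10 (adjusted p = 4.86e-05). Both genes fell by more than their replicates differed, and both kept their call without any 1 array. Btg2, an anti-proliferative gene, fell by 0.74, and Egr2, Klf4, Nr4a1 and the phosphatase gene Dusp1 fell by 0.31 to 0.45. On the arrays of the slide alone 3 of the 7 were called, and 4 when either day 7 array was left out. The glucocorticoid target list, which shares Dusp1 with it, held 6 falls of 16 and no rise, among them Cdkn1c (-1.02), Hsd11b1 (-0.39), the metallothionein Mt2 (-0.33) and Cebpd (-0.32). That list had 4 falls without day 10 array 1, 1 without day 10 array 2, none without day 7 array 1 and 2 without day 7 array 2.

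All 25 measured sterol synthesis genes had a negative difference, as did 50.6% of all genes, and 6 fell: Lss, Mvd, Mvk, Fdft1, Idi1 and Sc5d. The median was -0.35. Lss, the cyclase that makes lanosterol, measured 0.92 and 0.71 at day 7 and 0.12 and -0.017 at day 10, a fall of 0.76 ± 0.100 (adjusted p = 0.00067). Mvk, mevalonate kinase, went from 4.55 and 4.67 to 4.10 and 4.05, a fall of 0.53 ± 0.086 (adjusted p = 0.0026). Mvd, the decarboxylase of the same pathway, fell by 0.66. With array weights 2 of the 6 were called and on the slide alone 1. When the probes of a gene were averaged, Fdft1 stood at 0.027 and was not called, so its fall belongs to its brightest probe. Of 14 measured fatty acid synthesis genes 3 fell (Elovl6, Acsl3 and Acly, by 0.23 to 0.58) and none rose, with 1 fall when either day 10 array was left out and none without either day 7 array. Of 17 adipogenic genes 2 rose and 4 fell, and 2 fell when any 1 of the 4 arrays was left out. The fat storage genes Lpl and Plin4 fell by 0.91 and 1.02, while Pparg, the adipocyte transcription factor, rose by 0.41 ± 0.076 (adjusted p = 0.0058) and the fatty acid transporter Cd36 by 0.99. Cd36 stood at 0.66 without day 10 array 2 and at 1.32 without array 1. It was not called on the arrays of the slide alone or with array weights (adjusted p = 0.14 and 0.076, limma).

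More heart muscle genes fell than rose. Of 27 measured cardiomyocyte markers 6 fell and 2 rose, with a median of -0.26, and 14 of the 27 were above background on all 4 arrays. Actc1, cardiac actin, measured -0.27 and -0.056 at day 7 and -1.63 and -1.91 at day 10, a fall of 1.61 ± 0.11 (adjusted p = 1.50e-05). Myh6, the alpha myosin heavy chain, went from -1.28 and -1.45 to -2.79 and -2.62, a fall of 1.34 ± 0.14 (adjusted p = 0.00014). The thin filament gene Tnnt2 went from 5.32 and 5.30 to 4.71 and 4.27, a fall of 0.82 ± 0.12 (adjusted p = 0.0011). Mybpc3, Tnni1 and Sln were the other falls, the last pair above background at day 7 only.

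Outside this list, Cox8b, the muscle form of a cytochrome oxidase subunit, measured -2.66 and -2.67 at day 7 and -4.01 and -4.27 at day 10 (-1.47 ± 0.16, adjusted p = 0.00022). Trim63, the muscle ubiquitin ligase MuRF1, fell from -0.88 and -0.69 to -2.18 and -2.13 (-1.37 ± 0.10, adjusted p = 1.50e-05). Ppargc1a, a coactivator of mitochondrial genes, was also called lower and was above background at day 7 only. The 2 rises in the cardiomyocyte list, Cox7a1 (0.89) and Cox6a2 (0.70), are muscle forms of cytochrome oxidase subunits as well. Of the factors that make up MGT, Gata4 measured 2.80 and 2.81 at day 7 and 2.72 and 2.48 at day 10 (-0.20 ± 0.083, adjusted p = 0.15), and the differences of Mef2c (0.075 ± 0.52) and Tbx5 (0.034 ± 0.25) were smaller than their errors.

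Several contractile genes of smooth muscle and myofibroblasts rose. Of 16 measured members 6 rose and none fell, with a median of 0.24. Cnn1, calponin, measured 3.81 and 3.84 at day 7 and 4.77 and 4.52 at day 10, a rise of 0.82 ± 0.088 (adjusted p = 0.00018), or 1.76-fold. Actg2, the enteric actin, rose from 2.12 and 2.33 to 3.15 and 3.0 (0.85 ± 0.16, adjusted p = 0.0055). Myocd, the coactivator that drives smooth muscle genes, rose by 0.99 ± 0.20 (adjusted p = 0.0090), from -1.96 on both day 7 arrays to -0.82 and -1.11. Myh11, the smooth muscle myosin, rose by 0.97, and Lmod1 and Des rose by 0.63 and 0.27. Acta2 and Tagln, the usual myofibroblast markers, differed by 0.19 ± 0.12 and 0.33 ± 0.17 and were not called (adjusted p = 0.37 and 0.27). Day 10 array 1 was the higher in summed level, 993 against 799 (777 and 752 at day 7, as multiples of the 75th percentile), and the median was 0.36 without array 2 and 0.077 without array 1. With either day 7 array left out, 3 members were called. Rgs5, a regulator of G protein signalling known from pericytes, rose from -2.64 and -2.83 to -0.00205 and -0.97 (2.25 ± 0.30, adjusted p = 0.00075). The pericyte list as a whole moved little. Of its 10 measured members 2 rose and 0 fell, 3 had a negative difference, and the median was 0.098. The other rise, Vtn, was not well above background on any of the 4 arrays.

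Fibroblast identity genes changed in both directions, 3 up and 5 down of 28, with a median of -0.018. The homeobox gene Meox1 measured -1.34 and -1.27 at day 7 and 0.13 and -0.091 at day 10, a rise of 1.33 ± 0.096 (adjusted p = 1.50e-05), or 2.51-fold. Its probe lies at chr11:101738847-101738906 (mm9). Pdgfra, the PDGF receptor that marks resident fibroblasts, went from 3.25 and 3.22 to 2.52 and 2.53, a fall of 0.71 ± 0.065 (adjusted p = 6.61e-05). Tcf21, the transcription factor of the same cells, fell by 0.59 ± 0.076 (adjusted p = 0.00054), and the matrix genes Dpt, Lum and Clec3b fell by 0.53 to 0.85. The microfibril genes Mfap5 and Mfap4 rose by 0.70 and 0.54.

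Matrix lists differed in their share of calls. Of 28 elastic fibre and matrix glycoprotein genes 6 rose, among them Mfap5, Mfap4, the latent TGF-beta binding gene Ltbp2 (0.56) and the crosslinking enzyme Lox (0.41), and 2 fell, Efemp1 (-0.70) and Mfap2. The list had 3 rises without day 10 array 1 or day 7 array 2, and 2 without day 7 array 1. Of 27 collagens 2 rose (Col8a2 by 1.04, Col12a1 by 0.34) and 1 fell (Col6a2 by 0.32). The collagen counts are near the shares over all genes, 3.87% higher and 5.13% lower, while 21.4% of the elastic fibre list rose. On the arrays of the slide alone Col8a2 was called, and Col12a1 and Col6a2 were not. The rise of Col8a2 was as low as 0.35 under the alternatives. Aspn, a small proteoglycan that binds TGF-beta, rose from -0.73 and -0.63 to 0.62 and 0.50 (1.24 ± 0.13, adjusted p = 0.00014). The protease genes Adamts8 (0.75) and Adamts15 (-0.74) moved oppositely. Of 34 FGF, PDGF and other growth factor genes 5 rose and 6 fell, with a median of -0.041. Without day 10 array 2 this list had 2 falls, and without day 7 array 2 it had 3 rises and 1 fall, against 3 and 5 without day 7 array 1. Of 19 genes of the IGF axis 3 rose and 2 fell, with 1 rise without day 7 array 1 and 1 fall without day 7 array 2. Secreted regulators with rises included the activin antagonists Fstl3 (0.84) and Fst (0.52), Igf1 (0.66), Fgf9 (0.75) and Fgf21 (0.81), and those with falls included Vegfc (-0.72), Mdk (-0.79) and Igfbp5 (-0.56).

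All 14 of the largest rises were higher on day 10 array 2 than on array 1, as were 36.9% of all genes. Cx3cr1, the fractalkine receptor of monocytes and macrophages, measured 0.71 and 0.49 at day 7 and 2.86 and 4.05 at day 10, a rise of 2.86 ± 0.35 (adjusted p = 0.00042), or 7.26-fold. Fcrls, an Fc receptor-like gene of macrophages, measured -0.87 and -0.96 at day 7 and 0.73 and 3.54 at day 10 (3.05 ± 0.59, adjusted p = 0.0074). Alox5ap, which serves leukotriene synthesis, measured -0.045 and -0.17, then 1.29 and 3.28 (2.39 ± 0.46, adjusted p = 0.0072). Day 10 array 2 was the higher in all 3 genes, by 1.19 to 2.81 log2 units. Array 1 also lay above both day 7 arrays, which was a condition for the 14 largest rises and adds no support. Both day 10 arrays lay above both day 7 arrays for 21.9% of all genes.

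The other 11 of the 14 were Csta2 (3.18), the protease gene Ctse (3.02), Ambp (2.85), Pcp4l1 (2.66), the gluconeogenic enzyme Fbp1 (2.61), the lectin-like receptor Klra16 (2.53), Ifitm6 (2.53), the actin regulator Gmfg (2.51), the inflammasome sensor Nlrp1b (2.49), the potassium channel Kcnn4 (2.39) and Rgs18 (2.36), with SEs of 0.34 to 0.70. Of the 14, 11 were called without day 10 array 2, where Cx3cr1 stood at 2.27 (adjusted p = 0.0022) and Fcrls at 1.65 (adjusted p = 0.0026). Ifitm6, Nlrp1b and Rgs18 were not called then (adjusted p = 0.083, 0.15 and 0.27). Of the 14, 10 were called without day 7 array 1, 6 without day 7 array 2 and 1 on the arrays of the slide alone. Csta2, Klra16 and, among the falls, Serpina3g belong to families of near copies that a probe may not separate.

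The whole macrophage marker list shows the gap between the day 10 arrays. Its summed level, as multiples of the 75th percentile, was 228 and 209 at day 7, 232 on day 10 array 1 and 468 on day 10 array 2. Of 26 measured markers 7 rose and none fell, with a median of 1.13: Cx3cr1, Laptm5 (1.59), Fcer1g (1.59), Spi1 (1.40, well above background on 3 of the 4 arrays), Csf1r (1.36), Cd14 (1.04) and Ccr2, the last not well above background on any of the 4 arrays. Csf1r, the receptor for the macrophage growth factor, measured 3.47 and 3.48 at day 7 and 4.11 and 5.54 at day 10 (1.36 ± 0.31, adjusted p = 0.018). Cd68, Ptprc, Tyrobp and Adgre1 had differences of 0.98 to 1.30 and were not called. Without day 10 array 2 the list held 2 rises and 1 fall with a median of 0.33, without array 1 it held 22 rises with a median of 2.10, and 1 rise when either day 7 array was left out. In the lacZ cultures of day 14, hybridised on another slide, the summed level was 702 and 991.

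**Figure D4:**
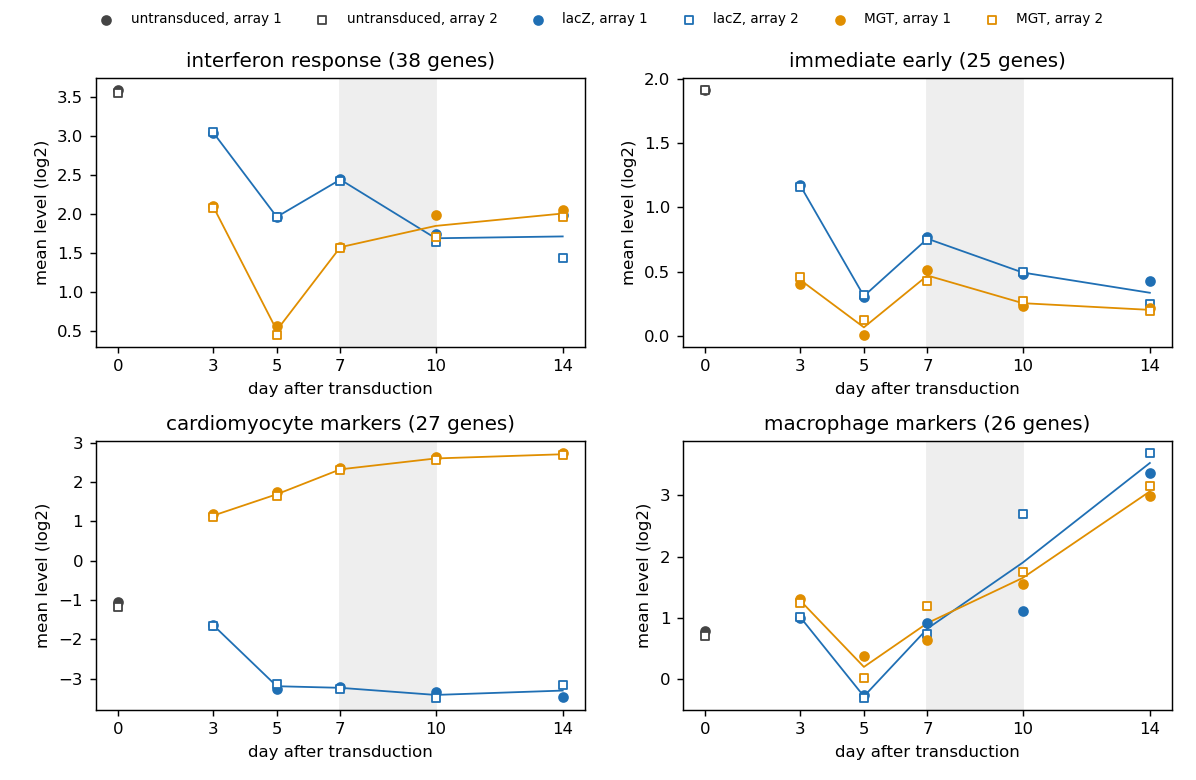
Mean level (log2, relative to the 75th percentile of the array) of 4 gene lists on each array against the day after transduction, for untransduced (grey), lacZ (blue) and MGT (orange) cultures, with lines through the group means and the span from day 7 to day 10 shaded. Slides changed between days 0 and 3, days 5 and 7, and days 10 and 14. From day 7 to day 10 the lacZ interferon mean went from 2.45 and 2.43 to 1.74 and 1.63, and the macrophage mean of day 10 was 1.11 on array 1 and 2.70 on array 2.

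Proliferation genes separated the day 10 arrays in the same way. The mean level of 40 mitosis genes was 0.25 on both day 7 arrays, 0.20 on day 10 array 1 and 0.79 on array 2. Only Cenpf was called, and it was not well above background on any of the 4 arrays. Without array 1, 29 of the 40 were called higher, and without array 2, 1 was higher and 1 lower. Of 36 DNA replication genes E2f1 alone was called (0.34). The called cell cycle inhibitors lay closer together between the arrays. Cdkn2a, which encodes p16 and ARF, rose from 2.70 and 2.61 to 3.97 and 3.62 (1.14 ± 0.12, adjusted p = 0.00020, limma). Its neighbour Cdkn2b rose by 0.42 (adjusted p = 0.047, limma), with 0.60 without day 10 array 2 and 0.24 without array 1. Cdkn2b was not called on the arrays of the slide alone. Cdkn1c (p57) fell by 1.02 ± 0.20 (adjusted p = 0.0075, limma), with -0.87 without day 10 array 2 and -1.16 without array 1.

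A minority of genes of the stress responses to unfolded proteins and to amino acid shortage rose. Of 25 unfolded protein response genes 5 rose and none fell, against 3.87% and 5.13% over all genes. All 25 had a positive difference, with a median of 0.16, whereas 50.6% of all genes had a negative difference. The chaperone Hspa5 measured 6.42 and 6.43 at day 7 and 6.85 and 6.66 at day 10 (0.33 ± 0.067, adjusted p = 0.0095), and Sdf2l1 rose by 0.71. Of 25 genes of the ATF4 and amino acid response 5 rose and none fell, led by Fgf21 and by the pseudokinase Trib3 (0.65 ± 0.10, adjusted p = 0.0026). Without day 7 array 2 the first list had no call, and it had 3 without day 7 array 1. The second had 2 rises without day 10 array 1 or day 7 array 2 and 11 without day 10 array 2, and on the slide alone neither list had a call. Several lists held 1 call or none. Of 37 oxidative phosphorylation genes 1 rose (Ndufa2, 0.26), of 28 splicing factors 1 fell (Ptbp2, -0.44), and none of 24 ribosome biogenesis and translation genes, 14 heat shock genes or 23 osteogenic and chondrogenic genes was called in this limma fit.

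In the Notch list, 4 of 19 rose and 1 fell: Dlk1, a secreted or membrane-bound relative of Notch ligands, went from 0.87 on both day 7 arrays to 1.90 and 1.66 (0.91 ± 0.16, adjusted p = 0.0036), Heyl and Hey1, targets of the pathway, rose by 0.60 and 0.43, Mfng rose by 1.33, and the receptor Notch1 fell by 1.07 ± 0.30 (adjusted p = 0.044). Mfng stood at 0.51 without day 10 array 2 (adjusted p = 0.14) and at 2.15 without array 1, and it was not called without either day 7 array. Notch1 was not called when any 1 of the 4 arrays was left out (adjusted p = 0.061 to 0.16). The list had 2 rises when either day 7 array was left out and 1 on the slide alone. Of 24 Hox genes, which record the position of a cell's origin along the body axis, 3 rose and none fell: Hoxc5 (1.87), Hoxd8 (0.77) and Hoxb2 (0.34). There were 2 such rises without day 7 array 1 and 1 without day 7 array 2. In the axon guidance list 5 of 32 fell (Sema5a, Epha4, Sema6a, Efnb2 and Ntn1, by 0.38 to 0.64) and none rose, with Ntn1 at 0.46 when its probes were averaged, and 3 fell when either day 7 array was left out. Without day 10 array 1 that list had 7 falls and 2 rises. Among 18 endothelial markers Sox17 alone was called, with -2.47 and -2.68 at day 7 and -4.34 and -4.80 at day 10 (-2.0 ± 0.39, adjusted p = 0.0075), 1 day 10 array being not well above background.

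For genes above background at only 1 of the days a lower bound is given. It sets the mean of the bright day against a floor on the arrays of the dim day, which is the dimmest signal still counted as well above background or the gene's own signal, whichever is higher. There were 18 called genes of this kind brighter at day 10 and 90 brighter at day 7. Ucn2, a hormone of the corticotropin-releasing family, was at least 12.9-fold higher at day 10 (adjusted p = 0.00049), although its day 10 arrays were 2.76 log2 units apart, at -0.86 and -3.62. Gngt1, a G protein subunit, was at least 12.9-fold higher (adjusted p = 1.50e-05), Gpr63 at least 12.2-fold, Treml2 at least 10.8-fold and Unc13a at least 7.26-fold. The call of Gpr63 (adjusted p = 0.021, limma) held in 10 of 17 alternatives. It was lost on the arrays of the slide alone and with array weights (adjusted p = 0.15 and 0.22). It was also lost when any 1 of the 4 arrays was left out. Brighter at day 7 were the protease inhibitor Serpina5 by at least 4.93-fold, Apol8 by at least 4.65-fold, Clec2h by at least 4.28-fold, Sult2a7 by at least 3.53-fold and the monooxygenase Fmo1 by at least 3.38-fold. Serpina5, Apol8 and Fmo1 had day 7 replicates within 0.17 log2 units of each other, and Sult2a7 had replicates 2.05 apart. Clec2h was not called on the arrays of the slide alone or with array weights (adjusted p = 0.077 and 0.19, limma).

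The MGT cultures, on the same slide and in the same rows, give the step over the same days in cells under reprogramming. There 824 genes were called (4.56%), of which 400 rose (2.21%) and 424 fell (2.35%). The lacZ step was higher than the MGT step for 43 genes (0.238%) and lower for 142 (0.786%), from the contrast of both steps in 1 limma fit, which holds no effect of slide row common to both vectors. Without lacZ day 10 array 1 the contrast was higher for 623 genes and lower for 332, and without any 1 of the other 7 arrays it was higher for 12 to 114 and lower for 56 to 157. Fitted on these 8 arrays alone, limma called 0 genes, with 1553 at an unadjusted p under 0.05. Interferon genes made up 17 of the 142, of 38 measured, and none of the 43. The median interferon difference was -0.78 in lacZ and 0.25 in MGT. Ifit3 measured 2.70 and 2.73 in MGT at day 7 and 3.45 and 2.92 at day 10, so at day 7 both lacZ arrays lay above both MGT arrays, and at day 10 the vectors overlapped. The lacZ step of Ifit3 was lower by 1.72 ± 0.33 (adjusted p = 0.033), that of its neighbour and near-copy Ifit3b by 1.68 ± 0.34 (adjusted p = 0.039) and that of the GTPase gene Tgtp2 by 1.61 ± 0.27 (adjusted p = 0.013).

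Of 27 cardiomyocyte markers 3 were among the 142 genes with a lower lacZ step. Myh6, with the largest difference of steps among the 12 genes plotted, rose in MGT from 6.42 and 6.20 to 7.21 and 7.14 while it fell in lacZ, a difference of steps of -2.20 ± 0.20 (adjusted p = 0.00053). Actc1 differed by -1.61 ± 0.16 (adjusted p = 0.00090) and Cox8b by -1.84 ± 0.23 (adjusted p = 0.0026), in both cases with no call in the MGT step. Fgl2 went from 2.02 and 2.01 to 1.34 and 1.19 in MGT, so its lacZ step was lower by 1.35 (adjusted p = 0.00065). Dlk1 fell in MGT, from -2.43 and -2.53 to -3.39 and -3.44, and rose in lacZ, a difference of 1.84 ± 0.22 (adjusted p = 0.0021). Dlx4 (1.19) and Hydin (1.11) rose in lacZ and were not called in MGT, while Gabra3 (1.27), Arsi (1.26) and Kbtbd11 (1.11) fell in MGT and were not called in lacZ. Several of the genes that changed most in lacZ had no called difference of steps. Cx3cr1 rose by 3.18 ± 0.35 in MGT, with a difference of -0.32 ± 0.50 (adjusted p = 0.92), and Cxcl5, Fos, Egr1, Meox1 and Pdgfra had differences of -0.045 to 0.46, none called.

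**Figure D5:**
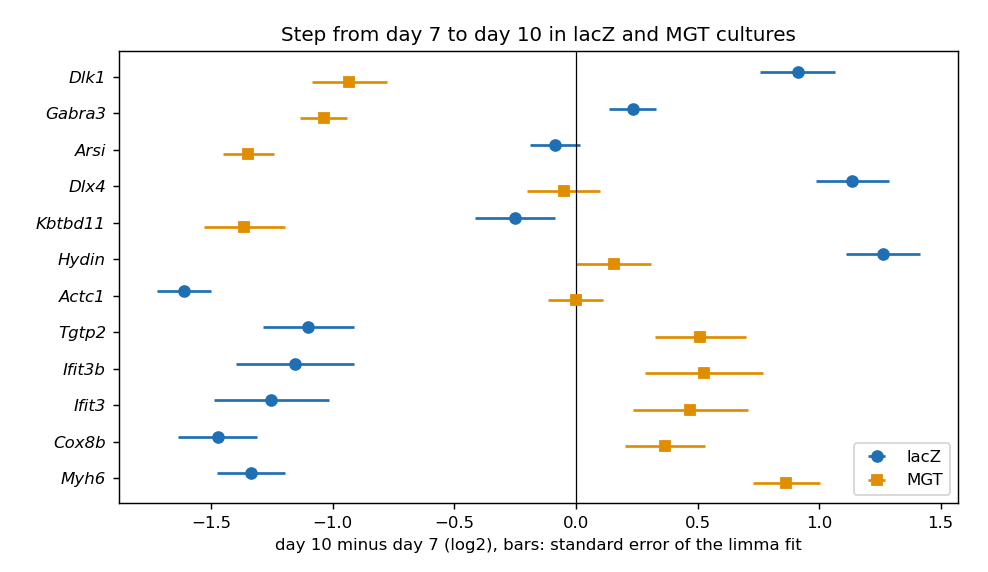
Difference between day 10 and day 7 (log2) in lacZ (blue circles) and MGT (orange squares) cultures for 12 genes. Bars give the standard error of the limma fit. The genes have the largest called differences between the steps, 6 in each direction, among genes well above background on every array of both steps. Clone and predicted names are left out. Myh6 lies at -1.34 in lacZ and 0.87 in MGT, and Dlk1 at 0.91 and -0.93.

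Against the earlier step of the same vector, day 3 to day 5 on another slide, the later step had fewer calls, 9.00% of genes against 29.6% (14.1% higher and 15.5% lower in the earlier step). The contrast of the steps was called for 19.8% of genes, higher for 1837 (10.2%) and lower for 1740 (9.63%). Without either day 3 array it was lower for 1110 or 1093. Interferon genes fell in both steps, 34 of 38 in the earlier one with a median of -0.89, and the contrast was higher for 9 and lower for none. Immediate early genes fell in both as well, in 20 of 25 members in the earlier step. Macrophage markers fell in the earlier step (18 of 26, median -1.30) and their contrast was higher for 21. Ccl12, a monocyte chemokine gene, fell by 5.08 in the earlier step and rose by 1.79 in the later, a contrast of 6.88 ± 0.65 (adjusted p = 3.07e-05, limma). Among genes well above background on every array of both steps, Fcgr2b (5.28), Cd300lf (5.10), Mrc1 (5.08), Ccl6 (4.92) and Spp1 (4.77) followed. None of these 5 was called in the later step. The later rise of Ccl12 was 1.08 without day 10 array 2 and 2.50 without array 1. That rise was not called on the arrays of the slide alone or with array weights (adjusted p = 0.19 in both, limma).

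The contractile genes of smooth muscle fell in 9 of 16 members between day 3 and day 5, against 15.5% of all genes, and their contrast was higher for 10, with Cnn1 at -0.82 in the earlier and 0.82 in the later step. Myh6 fell by 4.05 and Actc1 by 4.36 in the earlier step, so their later falls were smaller by 2.71 ± 0.20 and 2.75 ± 0.16 (adjusted p = 5.79e-06 and 8.78e-07). On the lower side, among genes well above background on every array of both steps, stood Adamts15 (-4.63 ± 0.21, adjusted p = 1.16e-07, limma). Adamts15 rose by 3.88 and then fell by 0.74. Cyp4b1 (-2.78), Fgl2 (-2.59), Tnfrsf25 (-2.50), Igfbp5 (-2.50) and Akr1c14 (-2.39) followed. Over all days Fgl2 in lacZ stood at -1.88 and -1.90 at day 3, -1.40 on both arrays at day 5, 2.16 and 2.30 at day 7, 0.063 and 0.18 at day 10, and -0.20 and -0.43 at day 14, with slides changing between days 5 and 7 and between days 10 and 14.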

How the data were processed

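The authors' scanner files come from Agilent Feature Extraction (version 10.7.3.1), per the file headers, and hold a processed intensity that is background-subtracted within each array, beside mean and local background intensities. The deposited series table gives an intensity per gene name (34378 names), with scale and centring not stated, and served as an alternative. The submitters' processing notes name limma. Spots marked as controls or outliers were dropped, and 0 were saturated. The log2 intensity minus the 75th percentile of its array was averaged over spots of a probe. A probe was kept if some group had it well above background on both of its arrays (38813 of 55681 probes), and the brightest kept probe stood for its gene, named through RefSeq (GRCm38.p6) accessions or symbols. The number of arrays limits the precision.

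A model with 11 group means was fitted to the 22 arrays with limma 3.58.1 (lmFit, eBayes) in R 4.3.3. Tested on simulated data for the day 7 to day 10 comparison (17923 genes), it recovered 39.5%, 72% and 90.5% of 200 genes changed by 0.5, 1 and 2 log2 units. Of its calls 7.06%, 5.88% and 5.73% were false. The simulated spread of a gene was pooled over all 11 groups, so the wider gap of the lacZ day 10 replicates (0.185) was not modelled. Replicate numbers did not pair the samples (correlation of deviations 0.073 between the days). Named genes were the 14 largest rises and falls among called genes above background on all 4 arrays with days not overlapping. The 5 largest bounds each way and up to 5 called members of each of 53 lists were also named. So were the 6 largest called differences of steps each way among genes well above background on every array of both steps. Clone, predicted and olfactory or vomeronasal receptor names were left out, except in the lists. Other members are named after their values were seen. The comparison and the lists were chosen with earlier results of these data known. Alternatives were background correction, scaling, probe filter and choice, the deposited table, prior, blocks, weights, fewer arrays and each array left out. An interferon list member that is counted with its list is not reported here by name.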

Additional observations from a re-analysis of the deposited data

Results flagged for a closer look

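The step from day 7 to day 10 differed between lacZ and MGT cultures by the contrast of both steps in the limma fit, higher in lacZ for 43 genes and lower for 142. The largest differences among genes well above background on every array of both steps are listed, without clone and predicted names. Higher were Dlk1 (1.84), Gabra3 (1.27), Arsi (1.26), Dlx4 (1.19), Kbtbd11 (1.11) and Hydin (1.11). Lower were Myh6 (-2.20), Cox8b (-1.84), Ifit3 (-1.72), Ifit3b (-1.68), Tgtp2 (-1.61) and Actc1 (-1.61). Without lacZ day 10 array 1 the contrast was higher for 623 genes, and without array 2 for 114.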

How the results depend on the processing

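The day 7 to day 10 step had 418 rises with the deposited table, 188 rises and 279 falls with array weights, 130 and 240 on the 8 arrays of the slide, 0 and 0 on its own 4 arrays, and 1062 and 1504 without the day 14 lacZ arrays. Leaving out each array in turn gave 267 to 1231 rises and 367 to 1171 falls. The difference from the MGT step was higher for 18 genes with the deposited table, 22 (80 lower) with no filter on dim probes, 0 (0 lower) on its own 8 arrays, 107 (256 lower) without the day 14 lacZ arrays and 26 with array weights. Leaving out each array gave 12 to 623 higher and 56 to 332 lower. The difference from the earlier step was lower for 1123 genes with the deposited table and higher for 1141 on its own 8 arrays, and 1242 to 2100 higher and 1093 to 2029 lower with each array left out. The cause of these changes was not tested beyond fewer arrays or other probes entering the fit. All other alternatives gave counts within 1.5 times the main ones. With replicate number as a block, which the check of pairing did not support, the step had 663 rises and 910 falls. Slide as a random block, with a correlation of 0, left every count as it was. H2-Aa turned to -0.19 with normexp and -0.65 with the deposited table, Rara to 0.0067 with the deposited table, and Fdft1 to 0.027 and Ntn1 to 0.46 with probes averaged. Of 204 called named genes, 54 kept their call under every alternative except the 4-array fit, 162 without day 10 array 1, 137 without day 10 array 2, 116 without day 7 array 1, 103 without day 7 array 2, 97 with array weights and 68 on the slide alone. Signal over background limits the 18 genes brighter at day 10 and 90 brighter at day 7 for which a bound is given, and the 75 rises below background on all 4 arrays.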
